A study of Mus musculus with 8 samples.

Results

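DNA repair genes were compared by pathway between NS5 mouse neural stem cells and astrocytes derived from them. A list of 47 genes was drawn up in 7 groups, covering homologous recombination, the Fanconi pathway, mismatch repair, base excision repair, end joining, nucleotide excision repair and the checkpoint kinases with their break sensor. A gene counted as measured when a probe of the scanner table carried its symbol in the platform annotation. By that rule 42 of the 47 were on the array, by 68 of 24613 probes, among 16449 gene symbols in all. Apex1, Palb2, Atr and Msh3 had no probe under their symbol and were not analysed here, and Xrcc2 is given separately because its only probe was named through its transcript accession.

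The 4 NS5 arrays held RNA of NS5, a line of mouse neural stem cells kept dividing on a surface by growth factors. The 4 astrocyte arrays held RNA of NS5 cells from which the growth factors had been withdrawn for 3 days while 5% fetal calf serum was given, so removal of mitogens, addition of serum and time in that medium differ together between the groups. No transgene or further agent is named in the labels, both groups come from 1 cell line, and the 4 of each kind are called biological replicates, so that the p-values below measure the spread between cultures of that line. Each array (Illumina MouseRef-8, 1 colour) gave 1 signal per probe.

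Cells divide their repair work among pathways that are used at different times. Homologous recombination mends double-strand breaks with the sister chromatid as template and therefore works in S and G2 phase, the Fanconi pathway frees replication forks from crosslinks, and mismatch repair follows the replication fork to remove wrongly paired bases. Base excision, nucleotide excision and end joining act on damaged bases, on bulky or ultraviolet lesions and on broken ends without a sister chromatid, and so also serve cells that no longer divide.

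Probes with a mean log2 signal above the median of all probes, equal to a signal of 30.7 units, were tested, which left 10377 genes and 36 of the 42 members. Bard1, Chek1, Fanca, Fancg, Neil3 and Xrcc5 fell under that level. Signals are normalized scanner units. A log2 fold change is the astrocyte minus the NS5 mean of log2(signal + 99.01). The offset shrinks differences between dim signals, so ratios of mean signals are given beside it where both groups were above background. Background was estimated at 35.4 to 39.8 units per array. A gene was called when its adjusted p (limma, Benjamini-Hochberg over all 10377 genes) was under 0.05. Because RNA came from whole cultures, fewer cells with a transcript and less of it per cell cannot be told apart.

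Transcripts of the recombination, mismatch and most base excision members tested were lower in astrocytes, whereas a few nucleotide excision and end joining members were higher. Of the 36 members tested, 23 (63.9%) were called lower in astrocytes, 5 (13.9%) were called higher and 8 were not called. Over all genes tested, 30.0% were called lower and 29.2% higher. The members called higher were Xpa, Ddb2, Ddb1, Prkdc and Xrcc4, so their share lay below the background share. A fall of at least 2-fold on the log2 scale was called for 11 members (30.6%), against 8.68% of all genes, and a rise of that size for 0 members, against 9.86% of all genes. All 4 astrocyte signals lay below all 4 NS5 signals for 21 members (58.3%), against 28.0% of all genes, and above them for 5 (13.9%), against 26.9%. The median log2 fold change was -0.61 over the members and -0.02 over all genes tested, and it was -0.53 with the genes that no astrocyte array measured set at their bound.

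The filter let some members through by 1 group alone, which selects for genes that differ. Rad51c, Xrcc3, Fanci, Fancl, Exo1, Lig4, Chek2 and Atm, 8 members in all, had a mean over the filter level in NS5 cells only, and Fancm in astrocytes only. Among the 27 members over that level in both groups, a subset chosen after the values had been seen, 15 (55.6%) were called lower and 5 (18.5%) higher. The corresponding shares among the 9512 genes over it in both groups were 30.0% and 28.0%.

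**Figure D1:**
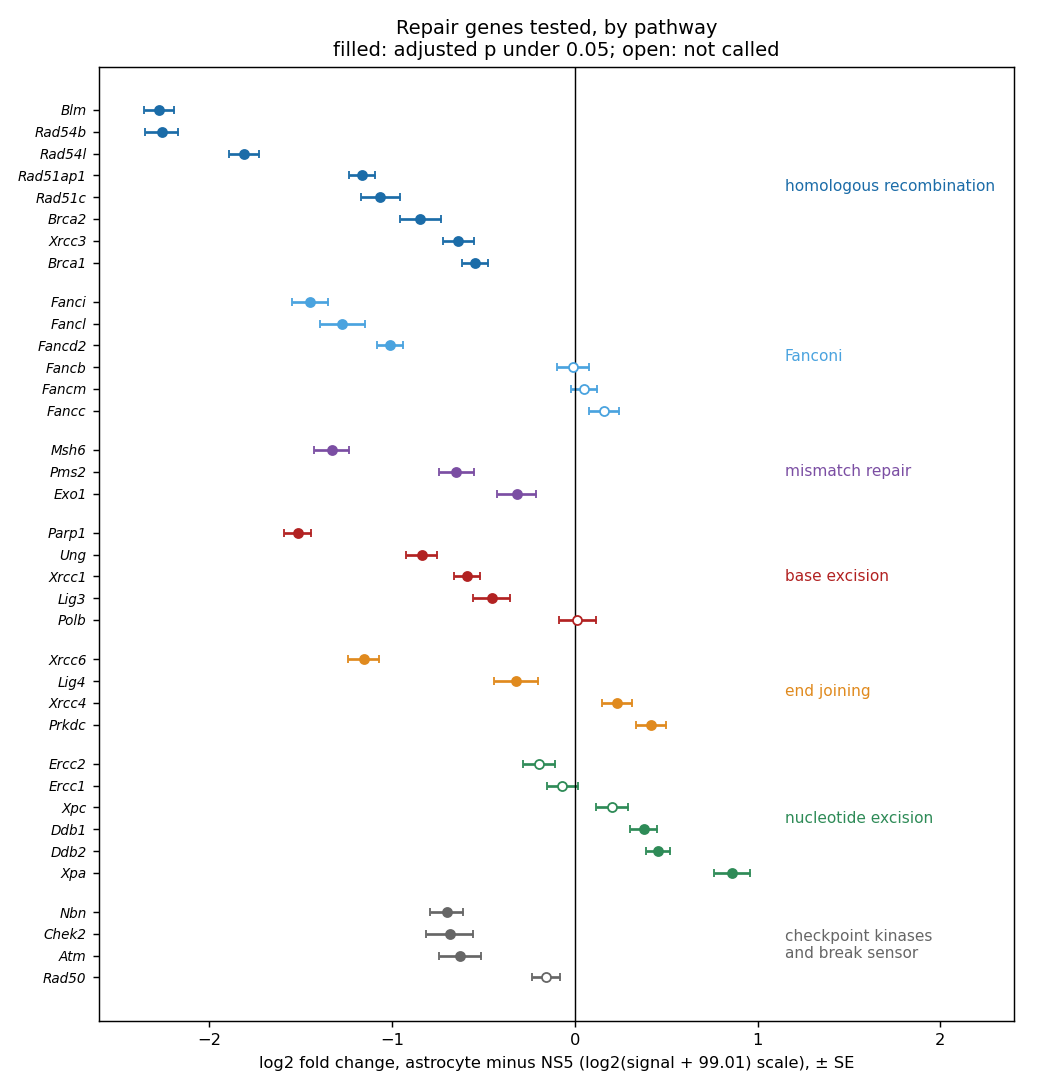
Log2 fold change (x axis, astrocyte minus NS5, from log2(signal + 99.01)) of the 36 members tested, grouped by pathway, with bars of ± SE and filled points for called genes. The recombination genes run from -2.27 to -0.55 and all lie left of 0, while the nucleotide excision genes run from -0.20 to 0.86.

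The homologous recombination members tested were lower as a group. All 8 were called lower with groups that did not overlap, and the median log2 fold change was -1.11. Of the 8, 6 were over the filter level in both groups. Of all genes tested, 30.0% were called lower, and 28.0% were lower with groups that did not overlap. Blm is the helicase that takes apart joined recombination intermediates. Its signals were 2639, 2916, 2781 and 2406 units on the NS5 arrays and 456, 527, 481 and 442 on the astrocyte arrays. Every NS5 array was thus several times above every astrocyte array, at a ratio of mean signals of 5.64 (log2 fold change -2.27 ± 0.08, SE, n = 4 per group, adjusted p = 1.83e-10). The order of the falls depended on the offset, since with signals under 16 set to 16 and no offset Blm had -2.50, Rad51c -2.52 and Rad54b -3.50.

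Rad54b and Rad54l, the motor proteins that act in strand invasion, were lower too. For Rad54b the NS5 signals were 727, 608, 668 and 624, and the astrocyte signals were 49.7, 52.6, 51.0 and 83.6. The astrocyte arrays lay just above background, with array 4 the highest of them, and the ratio of means was 11.1 (log2 fold change -2.26 ± 0.09, adjusted p = 3.66e-10). A dimmer Rad54b probe did not follow it, at a mean of 37.7 in NS5 cells and 44.7 in astrocytes with a log2 fold change of 0.07 and 2 arrays of each group above background, and the mean of both probes gave -1.09 (adjusted p = 9.04e-07). For Rad54l the NS5 signals were 1009, 909, 1068 and 890.5, and the astrocyte signals were 179, 210.0, 231 and 202. The groups were far apart, at a ratio of 4.71 (log2 fold change -1.81 ± 0.08, adjusted p = 1.65e-09).

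Further genes of strand invasion were lower as well. Rad51ap1, which promotes that step, measured 211, 232, 209 and 217 in NS5 cells and 47.0, 36.6, 36.2 and 49.3 in astrocytes, where 3 of 4 arrays were above background. Its log2 fold change was -1.16 ± 0.07 (adjusted p = 1.84e-08), and its other probe gave -1.15. Rad51c, a subunit of complexes that act early in recombination, measured 68.0, 130.4, 91.0 and 89.5 in NS5 cells and between -20.0 and -1.25 in astrocytes. No astrocyte array was above background for Rad51c, so the signal was at least 2.62-fold lower there (at least 1.42-fold with the offset of 99.01 added, means 94.7 ± 26.0 and -6.51 ± 9.00, SD, n = 4, adjusted p = 2e-06). Without any 1 of the NS5 arrays Rad51c dropped under the filter level and was not tested. Xrcc3, which pairs with Rad51c, measured 73.1, 74.2, 84.9 and 78.8 in NS5 cells and 11.9, 31.5, 1.94 and 15.0 in astrocytes. It too had no astrocyte array above background and was at least 2.15-fold lower (at least 1.31-fold with the offset, means 77.8 ± 5.34 and 15.1 ± 12.3, adjusted p = 2.7e-05).

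Both breast cancer genes were lower. Brca2, which acts on the resected single-stranded DNA, measured 151, 222, 218 and 183 in NS5 cells and 72.0, 88.6, 37.0 and 59.2 in astrocytes. The lowest NS5 array was above the highest astrocyte array, and the ratio of means was 3.01 (log2 fold change -0.84 ± 0.11, adjusted p = 2.59e-05). Brca1, which acts in the resection of broken ends, measured 159, 151, 137 and 163 in NS5 cells and 81.7, 74.2, 65.4 and 71.8 in astrocytes. Its groups were apart on every array at a ratio of 2.08, and its log2 fold change of -0.55 ± 0.07 (adjusted p = 2.02e-05) was the smallest of the pathway on this scale. Bard1, the partner of Brca1, was near or below background throughout, at 23.6 to 60.9 in NS5 cells with 2 arrays above background and at -34.7 to -20.2 in astrocytes with none. In a fit without the filter its log2 fold change was -0.92 (adjusted p = 6.08e-06).

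The Xrcc2 probe, which stood outside the count, measured 76.3, 51.9, 98.2 and 64.6 in NS5 cells and 28.7, 32.4, 26.4 and 34.9 in astrocytes. This further recombination gene was above background on 4 of 4 NS5 arrays and 0 of 4 astrocyte arrays, and was at least 2.02-fold lower (at least 1.27-fold with the offset, means 72.8 ± 19.6 and 30.6 ± 3.78, adjusted p = 0.00147). Its astrocyte mean was under the filter level of 30.7 units, so the probe passed the filter through the NS5 group alone.

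Promoter letters were counted over members of all pathways together, split by a fall of 2-fold or more on the log2 scale with the offset. Of the 42 members on the array, 33 had an entry among RefSeq promoters (GRCm38.p6), read from 250 bases before to 50 bases after each start of transcription. Letters were searched on both strands. The other members, those without a called fall of that size on this scale, included Brca1, Brca2, Ung and Xrcc3. The signals of these genes without the offset were more than 2-fold lower in astrocytes. Bard1, Chek1, Fanca, Fancg, Neil3 and Xrcc5, which were not tested, were counted there too. The CCAAT letters bound by NF-Y stood in 5 of 9 genes lower by 2-fold or more (55.6%), in 13 of 24 other members (54.2%) and in 41.1% of 27025 genes. The E2F letters TTTCGCGC or TTTGGCGC were found in 1 of the 9, in 0 of the 24 and in 0.9% of all genes, and the CHR letters TTTGAA of cell cycle promoters in 0 of the 9, in 1 of the 24 (Bard1) and in 20.2% of all genes. Such matches describe the letters in these windows and nothing more. Below stand the 250 bases before the start of the lower members Blm (chr7:80534999-80535248, minus strand) and Rad54l (chr4:116123690-116123939, minus strand) and of the higher members Xpa (chr4:46196312-46196561, minus strand) and Ddb1 (chr19:10605347-10605596, plus strand), which were picked after their fold changes had been seen, with CCAAT on either strand in capitals.
Blm: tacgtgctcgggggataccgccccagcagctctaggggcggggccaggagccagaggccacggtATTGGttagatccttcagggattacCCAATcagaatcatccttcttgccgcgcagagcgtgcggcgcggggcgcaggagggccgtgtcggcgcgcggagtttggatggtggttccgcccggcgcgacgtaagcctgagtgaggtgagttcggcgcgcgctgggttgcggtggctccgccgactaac
Rad54l: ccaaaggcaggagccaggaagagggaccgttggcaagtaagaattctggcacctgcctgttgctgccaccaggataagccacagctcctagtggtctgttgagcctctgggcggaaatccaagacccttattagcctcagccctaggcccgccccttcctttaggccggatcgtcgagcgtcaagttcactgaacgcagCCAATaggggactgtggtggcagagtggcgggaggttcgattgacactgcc
Xpa: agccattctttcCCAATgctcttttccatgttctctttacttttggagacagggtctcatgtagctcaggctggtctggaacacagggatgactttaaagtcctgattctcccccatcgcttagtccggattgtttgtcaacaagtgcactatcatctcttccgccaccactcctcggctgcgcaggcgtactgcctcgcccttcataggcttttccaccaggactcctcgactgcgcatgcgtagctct
Ddb1: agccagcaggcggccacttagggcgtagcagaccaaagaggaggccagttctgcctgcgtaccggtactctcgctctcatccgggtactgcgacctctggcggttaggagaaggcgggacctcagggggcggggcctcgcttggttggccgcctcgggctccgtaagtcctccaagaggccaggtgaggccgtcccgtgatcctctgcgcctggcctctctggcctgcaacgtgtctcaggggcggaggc
Blm held the letters once on each strand, Rad54l and Xpa once each, and Ddb1 not at all. Rad51c had a promoter entry without the E2F letters (chr11:87404905-87405204, minus strand). The 1 E2F match lay downstream of its other start and is in capitals in these 30 bases from that start onward (chr11:87404477-87404506, minus strand).
Rad51c: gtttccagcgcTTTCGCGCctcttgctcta

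Of 6 Fanconi genes tested 3 were lower, namely Fanci, Fancd2 and Fancl, and 0 higher, with a median of -0.51. Of all genes tested, 30.0% were called lower and 29.2% higher. Fancb, Fancc and Fancm, which were dim in both groups, were not called. Only 3 of the 6 were over the filter level in both groups, and of these only Fancd2 was called. The share called lower among all genes over it in both groups was 30.0%. Fanci, which is clamped on DNA together with Fancd2, measured 199, 203, 314 and 237 in NS5 cells and 24.5, 20.5, 25.0 and 23.8 in astrocytes. No astrocyte array was above background for Fanci, whose signal was at least 6.59-fold lower (at least 2.47-fold with the offset added, means 238 ± 53.2 and 23.5 ± 2.05, adjusted p = 6.83e-08). Fancd2 itself measured 236, 236, 252 and 247 in NS5 cells and 71.5, 60.3, 84.0 and 68.2 in astrocytes. The 4 arrays of each group lay close together and the ratio of means was 3.42 (log2 fold change -1.01 ± 0.07, adjusted p = 7.79e-08). Fancl, the ubiquitin ligase that marks this pair, measured 176, 239, 225 and 155 in NS5 cells and 21.8, 32.4, 43.7 and 0.69 in astrocytes. Of the astrocyte arrays 1 was above background for Fancl, and the log2 fold change was -1.27 ± 0.12 (adjusted p = 1.46e-06).

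The other core complex genes were dim. Fancb measured 37.3, 52.1, 62.2 and 69.6 in NS5 cells and 43.6, 62.7, 45.2 and 65.9 in astrocytes, and the groups overlapped fully (log2 fold change -0.01 ± 0.09, adjusted p = 0.953). Fancc measured 56.3, 53.7, 65.4 and 60.6 against 80.8, 63.3, 102 and 65.3, with 2 astrocyte arrays inside the NS5 range and 2 above it (0.16 ± 0.08, adjusted p = 0.123). Fancm, the translocase that anchors the complex on DNA, measured 28.5, 26.5, 35.4 and 29.4 against 32.1, 35.4, 26.4 and 44.8, with 1 of the 8 arrays above background (0.05 ± 0.07, adjusted p = 0.587). The core subunits Fanca and Fancg were above background on no array, at -27.0 to 5.00 and 4.06 to 20.5 in NS5 cells and at -14.8 to -6.58 and -10.2 to 22.8 in astrocytes. Without astrocyte array 4 the Fancm probe fell under the filter level and the pathway's median became -1.01.

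**Figure D2:**
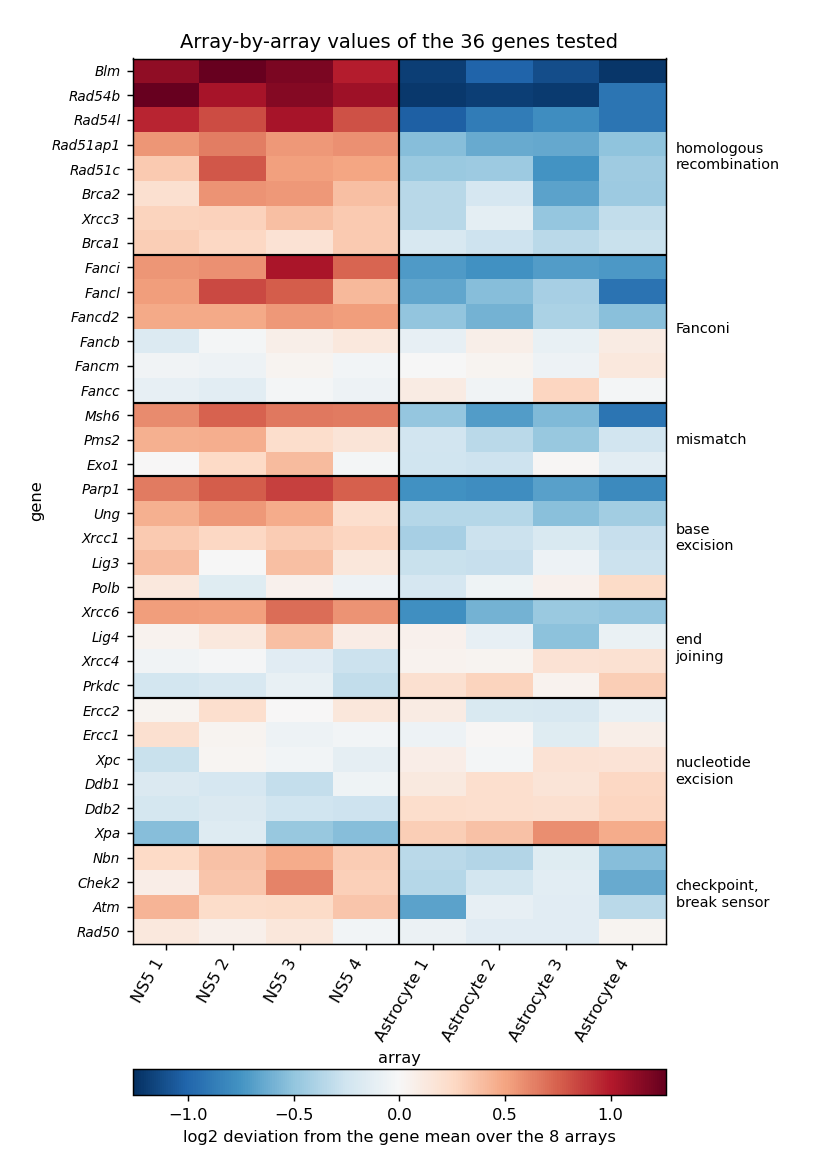
Deviation of each array's log2 signal from the gene's mean over the 8 arrays (colour, log2 units), for the 36 members tested (rows, by pathway) on the 4 NS5 and 4 astrocyte arrays (columns). The median over the recombination genes was 0.44 to 0.72 on the NS5 arrays and -0.71 to -0.48 on the astrocyte arrays, and that over the nucleotide excision genes -0.20 to -0.07 and 0.11 to 0.22.

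Mismatch repair was lower by all 3 members tested, 2 of them over the filter level in both groups, with a median log2 fold change of -0.65. Msh6, which recognises mispaired bases, measured 4758, 5263, 4981 and 4953 in NS5 cells and 2189.9, 1876, 2085 and 1598 in astrocytes. It stayed well above background on all arrays while its mean fell 2.58-fold (log2 fold change -1.33 ± 0.09, adjusted p = 9.24e-08), and its dimmer probe gave -0.66. Pms2, whose complex nicks the new strand, measured 406, 409.6, 332 and 313 in NS5 cells and 215, 193, 166 and 214 in astrocytes. The groups were separate at a ratio of 1.85 (-0.65 ± 0.09, adjusted p = 5.46e-05). Exo1, the exonuclease that removes the faulty stretch, measured 37.6, 62.7, 80.9 and 34.8 in NS5 cells and 15.3, 14.5, 38.8 and 24.7 in astrocytes. Its groups overlapped and few of its values exceeded background, with 2 NS5 arrays and 1 astrocyte array above it (-0.32 ± 0.11, adjusted p = 0.0217). The Exo1 call was lost without NS5 array 2 (adjusted p = 0.0633), NS5 array 3 (0.0717) or astrocyte array 2 (0.0636).

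Base excision repair was lower in 4 of 5 members tested, each over the filter level in both groups, with a median of -0.59. The share called lower over all genes tested was 30.0%. Parp1, the enzyme that senses single-strand breaks and builds poly(ADP-ribose), measured 1718, 1857, 2004 and 1852 in NS5 cells and 580.0, 574, 621 and 566 in astrocytes. The ratio of means was 3.17 (log2 fold change -1.51 ± 0.07, adjusted p = 2.37e-09), and the dimmer probe of Parp1 gave -0.69. Ung, the glycosylase that removes uracil, measured 172, 192, 177 and 132 in NS5 cells and 56.6, 56.4, 39.6 and 48.4 in astrocytes. The highest astrocyte signal of Ung was below every NS5 signal, and the ratio was 3.35 (-0.84 ± 0.09, adjusted p = 2.46e-06).

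Xrcc1, the scaffold of single-strand break repair, measured 558, 525, 553 and 529 against 290.3, 332, 356 and 329, a ratio of 1.65 (-0.59 ± 0.07, adjusted p = 1.37e-05). Its ligase partner Lig3 measured 618, 444, 610.4 and 504 against 349, 347, 423 and 354. The groups of Lig3 were separate by a small margin at a ratio of 1.48 (-0.45 ± 0.10, adjusted p = 0.00168). Polb, the polymerase that fills the gap, measured 479, 378, 448 and 408 in NS5 cells and 358, 409, 448 and 528 in astrocytes, which overlapped throughout (0.02 ± 0.10, adjusted p = 0.916). The glycosylase Neil3 was above background on no array, at -24.9 to -10.3 in NS5 cells and -30.6 to -5.31 in astrocytes.

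End joining showed no common direction, with 2 members lower and 2 higher of 4 tested and a median of -0.04. Over the filter level in both groups were 3 of them, Xrcc6, Prkdc and Xrcc4. Of all genes tested, 30.0% were called lower and 29.2% higher. Xrcc6, the Ku70 subunit that grips broken ends, measured 954, 948, 1092 and 988 in NS5 cells and 331, 386, 432 and 425 in astrocytes. Its groups were far apart at a ratio of 2.53 (log2 fold change -1.15 ± 0.09, adjusted p = 1.33e-07), and its dimmer probe gave -0.60. Xrcc5, the Ku80 partner of Xrcc6, was above background on no array, at -26.6 to -6.61 in NS5 cells and -26.5 to -4.28 in astrocytes, and was not tested. Prkdc, the kinase that Ku recruits, moved the other way and measured 405, 415, 455 and 379 in NS5 cells and 583, 618, 512 and 636 in astrocytes. All astrocyte arrays of Prkdc were above all NS5 arrays at a ratio of 1.42 (0.42 ± 0.08, adjusted p = 0.000651), while its dimmer probe gave 0.13.

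The final ligation complex was near the threshold. Xrcc4, the scaffold of Lig4, measured 394, 406, 362 and 323 in NS5 cells and 426, 423, 479 and 484 in astrocytes. Its groups did not overlap, yet the difference was small at a ratio of 1.22 (0.23 ± 0.08, adjusted p = 0.0259). Lig4, the ligase itself, measured 40.0, 49.0, 76.3 and 45.1 in NS5 cells and 41.2, 27.1, -4.48 and 28.8 in astrocytes. Its groups overlapped, with 3 NS5 arrays and 1 astrocyte array above background (-0.32 ± 0.12, adjusted p = 0.0358). The Xrcc4 call was lost without NS5 array 3 (adjusted p = 0.0566) or 4 (0.082), without astrocyte array 3 (0.0656) or 4 (0.0661), and under median centring (0.207). The Lig4 call was lost without NS5 array 2 (0.0627), 3 (0.114) or 4 (0.051) and without astrocyte array 2 (0.0518) or 3 (0.0965). With the replicate number as a block both calls were lost as well (adjusted p = 0.0555 for Xrcc4 and 0.0729 for Lig4).

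Nucleotide excision repair was the one pathway whose members had a positive median, 0.29. Of its 6 members 3 were higher and 0 lower, all 6 over the filter level in both groups. Over all genes tested 29.2% were called higher, and the further genes of this pathway, given below, had a median of -0.32. Xpa, which verifies the lesion and assembles the incision complex, measured 298, 418, 315 and 299.9 in NS5 cells and 616, 647, 766 and 698 in astrocytes. Every astrocyte array was above every NS5 array at a ratio of 2.05 (log2 fold change 0.86 ± 0.10, adjusted p = 7.81e-06), the largest rise of any member tested. Ddb2, the damage-binding subunit for ultraviolet lesions, measured 272, 281, 264 and 262 in NS5 cells and 405, 402, 398 and 423 in astrocytes. The arrays within a group were close and the ratio was 1.51 (0.46 ± 0.07, adjusted p = 5.15e-05), and its 3 dimmer probes over the filter level gave 0.27, 0.41 and 0.43. Ddb1, its partner and an adaptor of ubiquitin ligases, measured 4499, 4381, 4125 and 4899 in NS5 cells and 5568, 5909.6, 5723 and 6133 in astrocytes. The rise of Ddb1 was modest at a ratio of 1.30 with groups that did not overlap (0.38 ± 0.08, adjusted p = 0.000802). Median centring reduced it to 0.22 (adjusted p = 0.0456).

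The other 3 members of the pathway were not called. Xpc, the sensor of distorted helix, measured 174, 238, 224 and 206 against 251, 226, 277 and 274, with 1 astrocyte array inside the NS5 range (0.20 ± 0.09, adjusted p = 0.0592). Ercc1, part of the nuclease that cuts on the 5′ side, measured 1448, 1284, 1185 and 1217 against 1187, 1258, 1113 and 1318, which overlapped (-0.07 ± 0.08, adjusted p = 0.532). Ercc2, a helicase of the transcription factor TFIIH, measured 193, 229.6, 186 and 216 against 206, 149.7, 148 and 168, with 1 astrocyte array among the NS5 values (-0.20 ± 0.09, adjusted p = 0.0729). Xpc was called higher without NS5 array 2 (adjusted p = 0.0404) or astrocyte array 2 (0.0391), and Ercc2 was called lower without astrocyte array 1 (0.0135).

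**Figure D3:**
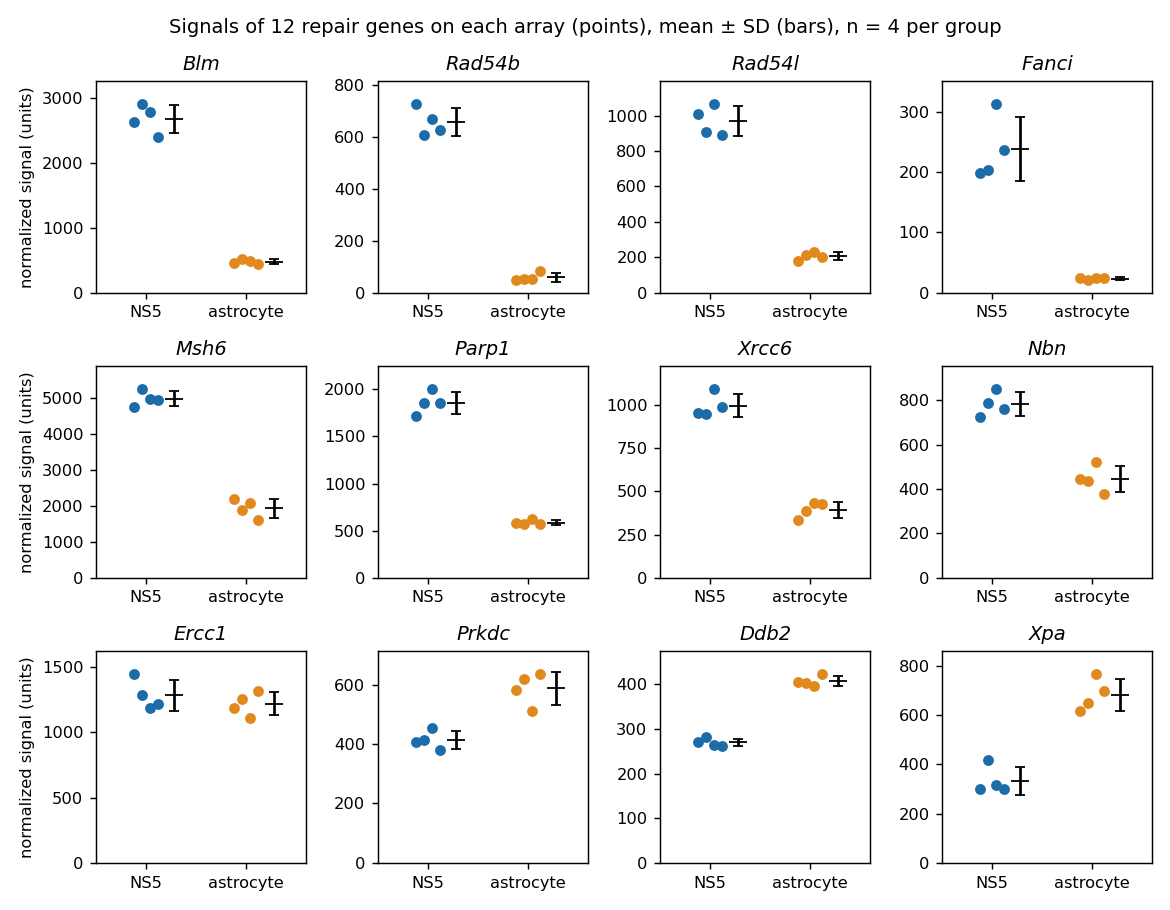
Normalized signal (y axis, scanner units) of 12 members on each of the 4 NS5 and 4 astrocyte arrays (points), with mean ± SD as bars. The astrocyte points lie below the NS5 points for Blm, Rad54b, Rad54l, Fanci, Msh6, Parp1, Xrcc6 and Nbn, overlap them for Ercc1 and lie above them for Prkdc, Ddb2 and Xpa.

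Of the checkpoint kinases and the break sensor 3 of 4 members tested were lower, with a median of -0.65. The share called lower over all genes tested was 30.0%. Only Nbn and Rad50 were over the filter level in both groups, and of these Nbn was called. Atm and Chek2 passed the filter through the NS5 group alone. Nbn, which brings Atm to broken ends as part of the Mre11 complex, measured 722, 788, 851 and 762 in NS5 cells and 446, 435, 519.9 and 375 in astrocytes. The groups of Nbn were separate at a ratio of 1.76 (log2 fold change -0.70 ± 0.09, adjusted p = 1.99e-05). Rad50 of the same complex measured 98.1, 89.3, 99.6 and 76.4 in NS5 cells and 72.1, 64.0, 63.7 and 85.3 in astrocytes, which overlapped (-0.16 ± 0.08, adjusted p = 0.0956). Atm, the kinase activated there, measured 102, 77.8, 78.7 and 92.3 in NS5 cells and -4.61, 40.5, 37.4 and 19.9 in astrocytes. Of the astrocyte arrays 2 were above background for Atm, and none reached an NS5 value (-0.63 ± 0.12, adjusted p = 0.000437). Its target Chek2 measured 67.6, 102, 144 and 95.7 in NS5 cells and 23.4, 35.1, 44.7 and 2.37 in astrocytes, with 1 astrocyte array above background (-0.68 ± 0.13, adjusted p = 0.000472). Chek1, the kinase that guards replication forks, was under the filter level at 33.9, 49.3, 37.1 and 29.0 against -2.48, -3.58, -3.29 and 2.88. Its signal was above background on 2 NS5 arrays and on no astrocyte array, and in a fit without the filter the log2 fold change was -0.48 (adjusted p = 0.000235).

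The contrast between pathways was set against 70 further repair genes, of which 63 were on the array and 53 were tested. Of these 33 were called lower, 3 higher and 17 not called, with a median of -0.32. Over all genes tested, 30.0% were called lower and 29.2% higher. Over the filter level in both groups were 47 of the 53, with 28 lower and 3 higher. The other 6, Brip1 and Clspn among them, were over it in NS5 cells only. In homologous recombination 7 of 11 were lower, 0 higher and 4 not called, with log2 fold changes from -1.71 to 0.29 and a median of -0.39. The lowest was Rpa3, a subunit of the single-strand binding complex, at -1.71 ± 0.09 (adjusted p = 9.04e-09). The helicase Brip1 averaged 291 ± 11.04 units in NS5 cells against 23.3 ± 4.92 in astrocytes, below background there, and was at least 8.07-fold lower (at least 2.89-fold with the offset, adjusted p = 5.08e-10). In the Fanconi pathway Ube2t, the conjugating enzyme that works with Fancl, fell from 634 ± 88.4 to 72.8 ± 25.6 (-2.10 ± 0.12, adjusted p = 1.18e-08), and Usp1, which takes the mark off again, fell from 2061 ± 85.4 to 454 ± 42.3 (-1.97 ± 0.08, adjusted p = 3.62e-10).

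Among 12 further base excision genes 7 were lower and 1 higher. Lig1, the ligase of replication and long-patch repair, fell from 2028 ± 223 to 119 ± 6.21 (-3.28 ± 0.08, adjusted p = 9.91e-12), and Fen1, the flap nuclease of the same steps, fell from 3379 ± 245 to 626 ± 60.8 (-2.26 ± 0.09, adjusted p = 2.55e-10). Mbd4, a glycosylase for mismatched thymine and uracil at CpG sites, rose from 146 ± 17.5 to 408 ± 138 (1.00 ± 0.18, adjusted p = 0.000357). In end joining 0 of 4 were lower and 1 was higher, the Ku-binding factor Paxx, which rose from 270 ± 54.9 to 811 ± 79.3 (1.31 ± 0.11, adjusted p = 4.45e-07). Of 10 further checkpoint genes 6 were lower and 0 higher. Clspn, the adaptor that lets Atr activate Chek1, averaged 1272 ± 226 units in NS5 cells against 20.0 ± 23.8 in astrocytes, where 1 array was above background (-3.53 ± 0.14, adjusted p = 4.29e-10). The histone H2ax, phosphorylated around breaks, fell from 1510.2 ± 107 to 112 ± 24.1 (-2.94 ± 0.09, adjusted p = 6.76e-11).

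The further nucleotide excision genes did not share the direction of Xpa, Ddb1 and Ddb2. Of 11 tested, 9 were lower and 1 was higher, with a median of -0.32. Those lower included the TFIIH subunits Gtf2h4, at 1749 ± 157 in NS5 cells against 743 ± 64.1 in astrocytes, and Gtf2h2, at 2701 ± 191 against 1302 ± 56.0 (adjusted p = 1.6e-07 for each), whose complex also serves transcription. The one higher was Ercc4, the nuclease partner of Ercc1, at 347 ± 18.5 in NS5 cells and 522 ± 88.7 in astrocytes (0.47 ± 0.10, adjusted p = 0.00174). Across both lists the nucleotide excision genes called higher were thus Xpa, Ddb2, Ddb1 and Ercc4. Over all genes tested, 29.2% were called higher and 30.0% lower.

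**Figure D4:**
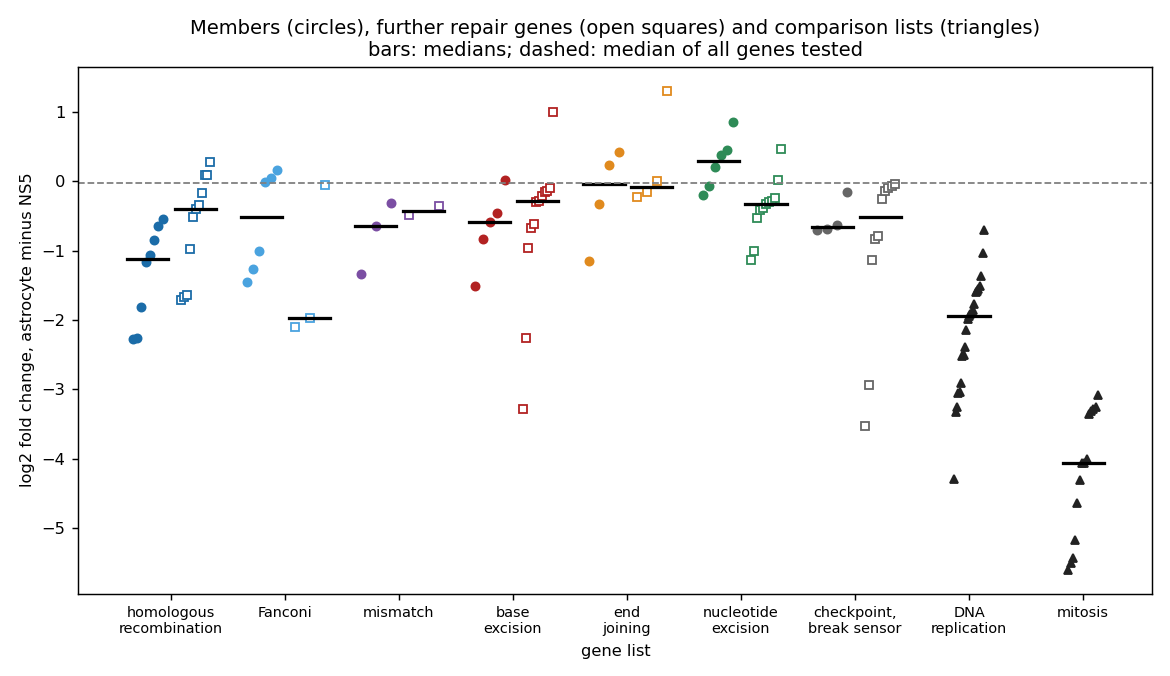
Log2 fold change (y axis, astrocyte minus NS5) of each gene tested, by list (x axis), with members as circles, the further repair genes as open squares and the DNA replication and mitosis lists as triangles, a bar at each median and a dashed line at the median of all genes. The medians of the nucleotide excision genes stand at 0.29 for members and -0.32 for the further genes, and those of replication and mitosis at -1.94 and -4.07.

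Genes of cell division were lower in astrocytes, as were most but not all of the repair members tested. Of 27 DNA replication genes on the array (helicase, polymerase, clamp loader and origin genes) 23 were tested. All 23 were lower, 22 of them by at least 2-fold, with a median of -1.94. Of 19 mitosis genes on the array 14 were tested, and all 14 were lower with a median of -4.07. Over the filter level in both groups were 20 of the replication and 7 of the mitosis genes tested. Of all genes tested, 30.0% were called lower and 8.68% were called lower by at least 2-fold. The median of the recombination members, -1.11, was thus smaller in size than that of the replication list on the scale with the offset. That offset shrinks dim signals more, and the median of the replication list without it was not computed. The part of cell division in the repair results was not tested.

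Mean signals per array were 469 to 648 and 46.0% to 47.9% of probes exceeded background. Arrays correlated at 0.993 to 0.995 within NS5 cells, at 0.984 to 0.994 within astrocytes and at 0.848 to 0.859 between the groups. Of 7 astrocyte markers tested 6 were higher in astrocytes, Gfap and Aqp4 among them, and the summed signal of the list was 17467 to 19990 units in NS5 cells and 66362 to 81221 in astrocytes. Of 5 neural stem cell markers 2 were lower and 2 higher. All 3 oligodendrocyte markers tested were higher, with sums of 194 to 313 against 1053 to 1694 over the 6 on the array, and 4 microglia markers were above background on no array. Of the fibroblast markers 0 of 2 tested were called, and of the neuron markers 1 of 4 was lower and 1 higher. The part of other cell types in the repair results was not tested.

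The order of the members' medians kept recombination lowest and nucleotide excision highest in each of the 16 alternatives run. All of these drew on the same member list, and the further repair genes had another order. Their medians were lowest for Fanconi, at -1.97 over 3 genes, and highest for end joining, at -0.08, with -0.39 for recombination and -0.32 for nucleotide excision. The sizes of the members' medians depended on the treatment of dim signals. With signals under 16 set to 16 and no offset, the medians were -2.31 for recombination, -0.90 for the Fanconi genes, -1.19 for mismatch repair, -0.73 for base excision, -0.32 for end joining and -1.27 for the checkpoint genes, and 18 in place of 11 members were lower by at least 2-fold.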

How the data were processed

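RNA from 4 NS5 and 4 astrocyte cultures was measured on 1-colour Illumina MouseRef-8 arrays after TRIzol extraction, amplification with TotalPrep and biotin labelling, per the labels' protocols. The authors deposited linear probe intensity values without detection p-values. Since some are negative, a background had already been subtracted, by a method not given in the sources used here. A second table the authors deposited holds log2 values, equal to the intensities floored at 10, log2 transformed and quantile normalized, and it served as an alternative. Slides, chips and scan dates are not named in these sources, and a batch was not tested.

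Intensities were raised by 99.01, setting the lowest to 16, log2 transformed, quantile normalized and fitted with limma 3.58.1 (lmFit, eBayes, group as the single term) in R 4.3.3, with figures drawn in Python 3.11.15. The design foresaw neqc where a detection p existed, and this was its fallback. Probes above the median log2 were kept (12306), each symbol by its brightest probe. The background limit was 1.645 times the root mean square of an array's negative signals. A gene with no array of a group above it has only a bound there. The bright group's mean is set against, per dim array, the higher of the lowest normalized value above the limit and the probe's own, on signals and, in the fit's scale, with the offset. The precision is limited by 4 arrays a group. Sequences are RefSeq's (GRCm38.p6).

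Every member on the array is named. Array values are given for the members of largest change in each pathway, those higher, those not called and those below background in a group. Of the further repair genes, the 2 called with the largest change in each pathway and any called higher are named, except in mismatch repair, where they are not reported here. Members and lists were chosen with earlier results of these data known. Alternatives were median centring, a floor of 16, the value table, other filters, the mean of all probes, array weights, a replicate block and leaving out each array.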

Additional observations from a re-analysis of the deposited data

Results flagged for a closer look

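In 4 of the 72 sets of 4 signals examined (36 members, each in both groups), 1 array stood apart, with a gap to its nearest neighbour over the whole range above Dixon's critical value at the 95% level. Chance gives about 1 set in 20. Lig3 on astrocyte array 3 read 423 units where the other 3 arrays read 347 to 354 (ratio 0.896). Rad51c on astrocyte array 3 read -20.0 where the others read -2.97 to -1.25 (0.916), all below background. Rad54b on astrocyte array 4 read 83.6 where the others read 49.7 to 52.6 (0.905). Xpa on NS5 array 2 read 418 where the others read 298 to 315 (0.845). The calls of these 4 genes held without each array in turn, except that Rad51c was not tested without any 1 of the NS5 arrays.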

How the results depend on the processing

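Over 8 other settings and the omission of each of the 8 arrays in turn, 20 to 24 members were called lower and 4 to 6 higher, against 23 and 5, and no fold change of a called member turned its sign. Calls changed for Exo1, Lig4, Xrcc4, Xpc, Ercc2 and Rad50 only, among the members tested in each setting. Without the filter Lig4 (adjusted p = 0.0609) and Xrcc4 (0.0589) were lost, with array weights Ercc2 was gained (0.0107), and Rad50 was gained with a floor of 16 (0.0449) and in the authors' value table (0.0467). The medians in the authors' value table were -2.35 for recombination, -0.90 for Fanconi, -1.24 for mismatch, -0.73 for base excision, -0.40 for end joining and -1.36 for checkpoint genes, and with a floor of 16 they were -2.31, -0.90, -1.19, -0.73, -0.32 and -1.27. In both, dim signals keep more of their fold because no offset is added. Fewer or more dim genes tested moved the Fanconi median to -0.036 without the filter and to -1.01 with probes above background on all arrays of a group, where mismatch was -0.99 and end joining 0.23. Median centring gave 0.19 for nucleotide excision and 2565 in place of 3025 genes higher over the whole table, 24.7% in place of 29.2%.

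Leaving out 1 array at a time gave 20 to 24 members lower, 4 to 6 higher and medians of -1.18 to -1.07 for recombination, -1.01 to -0.48 for Fanconi, -0.70 to -0.60 for mismatch, -0.62 to -0.54 for base excision, -0.08 to 0.0038 for end joining, 0.26 to 0.31 for nucleotide excision and -0.72 to -0.59 for checkpoint genes. With a floor of 16, 1401 genes in place of 901 were lower by 2-fold or more, and 1376 in the value table, where 19 members were. With a replicate block, 22 members were lower and 4 higher. Same-numbered arrays of both groups correlated at -0.05 to 0.15 in their deviations, 2 of 4 matching their own number best. Correlations this weak cannot decide whether the numbers pair the cultures. Members near background (Fancm, Exo1, Lig4, Atm, Chek2) are limited by signal.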
